A study of Mus with 8 samples.

Results

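The genes of the suprabasal epidermis, the layers in which keratinocytes leave the basal layer and mature into cornified cells, were examined in mouse skin treated with keratin, microsphere keratin or minoxidil. They were 7 genes taken by symbol: Krt1, Krt10, Krtdap, Sbsn, Ivl, Lor and Flg. The first 6 were found and Flg is not analysed here, so the members described are 6 of 14980 genes with 1 symbol. All 6 passed the filter on dim genes and are among the 11235 genes tested. Where a gene had several probesets, the one that was brightest on average in the 8 arrays was used.

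The tissue was skin with hair follicles from male C57BL6 mice. The labels give an age of 6 weeks before 7 days of acclimatization, and 7 weeks elsewhere. Hair was trimmed and removed in every group, and the substances were put on the skin for 20 days. The untreated group received MilliQ water, and the others 1% minoxidil (a vasodilator used against hair loss, here the positive control), 1% keratin or 1% microsphere keratin. Each group comprised 5 mice and 2 arrays, numbered 1 and 2, and the labels leave unsaid if the arrays hold different mice, pooled RNA or a repeat of one preparation. The p-values therefore measure only the spread between these arrays, which may be technical, and the number of arrays limits the precision. In bulk skin, fewer cells of a type and less RNA per cell cannot be told apart.

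When a keratinocyte leaves the basal layer it switches off the keratin pair Krt5 and Krt14 and makes Krt1 and Krt10, whose filaments carry the upper layers. Higher up, precursors such as involucrin (Ivl) and loricrin (Lor) are cross-linked by transglutaminases under the plasma membrane into the cornified envelope, the protein shell of the dead surface cells. Keratinocyte differentiation-associated protein (Krtdap) and suprabasin (Sbsn) are made in the differentiating layers and are secreted.

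The arrays were not of equal quality. Minoxidil array 1 correlated with the others at r = 0.39 to 0.47 over all probesets, and had a beta-actin 3′ signal of 47.2. That signal was 656 in untreated array 1, and between 1448 and 1883 in the 6 remaining ones. The mean log2 level of all genes tested was 5.67 in untreated array 1 and 5.89 to 6.01 in the 6 arrays other than it and minoxidil array 1. Array medians were 35.9 to 37.7. The members were dim: among the 23 nonspecific control probesets the highest read 38.9 to 57.0 per array, and Sbsn was above it in 8 of 8 arrays, Krt10, Krtdap and Ivl in 6, Krt1 in 4 and Lor in 3. Nonspecific control probesets read no lower than 20.0 in any array. Whether such a background made the folds of dim genes smaller was not tested. Basal keratinocytes were represented in every array by Krt5, at 163 to 580.

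No gene was called in any comparison. With limma across all 11235 genes, 0 (0.00%) had a Benjamini-Hochberg adjusted p under 0.05 for keratin, microsphere keratin or minoxidil against untreated, or for microsphere keratin against keratin. An unadjusted p under 0.05 was reached by 46 genes (0.409%), 10 genes (0.0890%), 50 genes (0.445%) and 14 genes (0.125%) in that order, and by none of the members. A moderated F test over the 4 groups also called 0 genes (0.00%), and its adjusted p was 1.00 for every member. The members are therefore described by their values.

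Among the keratins, Krt1, the type II keratin of the suprabasal layers, had an intensity of 43.3 and 52.9 in untreated arrays 1 and 2, 36.8 and 56.7 in the minoxidil arrays, 63.5 and 80.8 in the keratin arrays, and 45.1 and 50.2 in the microsphere keratin arrays. Both keratin arrays lay above the other 6 arrays, and the remaining groups overlapped each other. Krt10, the type I partner of Krt1, read 44.0 and 74.6 in untreated, 28.7 and 68.1 in minoxidil, 71.9 and 93.8 in keratin, and 64.5 and 62.2 in microsphere keratin skin. Its highest array was keratin array 2, as for Krt1, but keratin array 1 was below untreated array 2.

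Krtdap, which marks the differentiating layers, read 59.0 and 58.7 in untreated, 53.1 and 49.3 in minoxidil, 77.6 and 77.8 in keratin, and 58.2 and 54.3 in microsphere keratin skin. It had the closest arrays of the 6 genes within the untreated and keratin groups, with both keratin arrays above all others and both minoxidil arrays below all others. Sbsn, the secreted suprabasin, read 99.6 and 131.1 in untreated, 40.2 and 179.0 in minoxidil, 197.2 and 141.5 in keratin, and 159.3 and 131.9 in microsphere keratin skin. Minoxidil held both its lowest array and its second highest, and the minoxidil arrays overlapped every other group. Its probeset is of the type in which some probes can also match other transcripts.

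Ivl, an early scaffold of the cornified envelope, read 67.0 and 41.2 in untreated, 48.4 and 49.7 in minoxidil, 106.8 and 58.2 in keratin, and 73.5 and 57.6 in microsphere keratin skin. It was highest in keratin array 1, and keratin array 2 lay below untreated array 1. Lor, the main protein of the mature envelope, read 48.3 and 59.4 in untreated, 41.3 and 51.9 in minoxidil, 53.4 and 73.5 in keratin, and 48.5 and 47.8 in microsphere keratin skin. Only keratin array 2 stood above all arrays of the other groups for Lor.

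**Figure D1:**
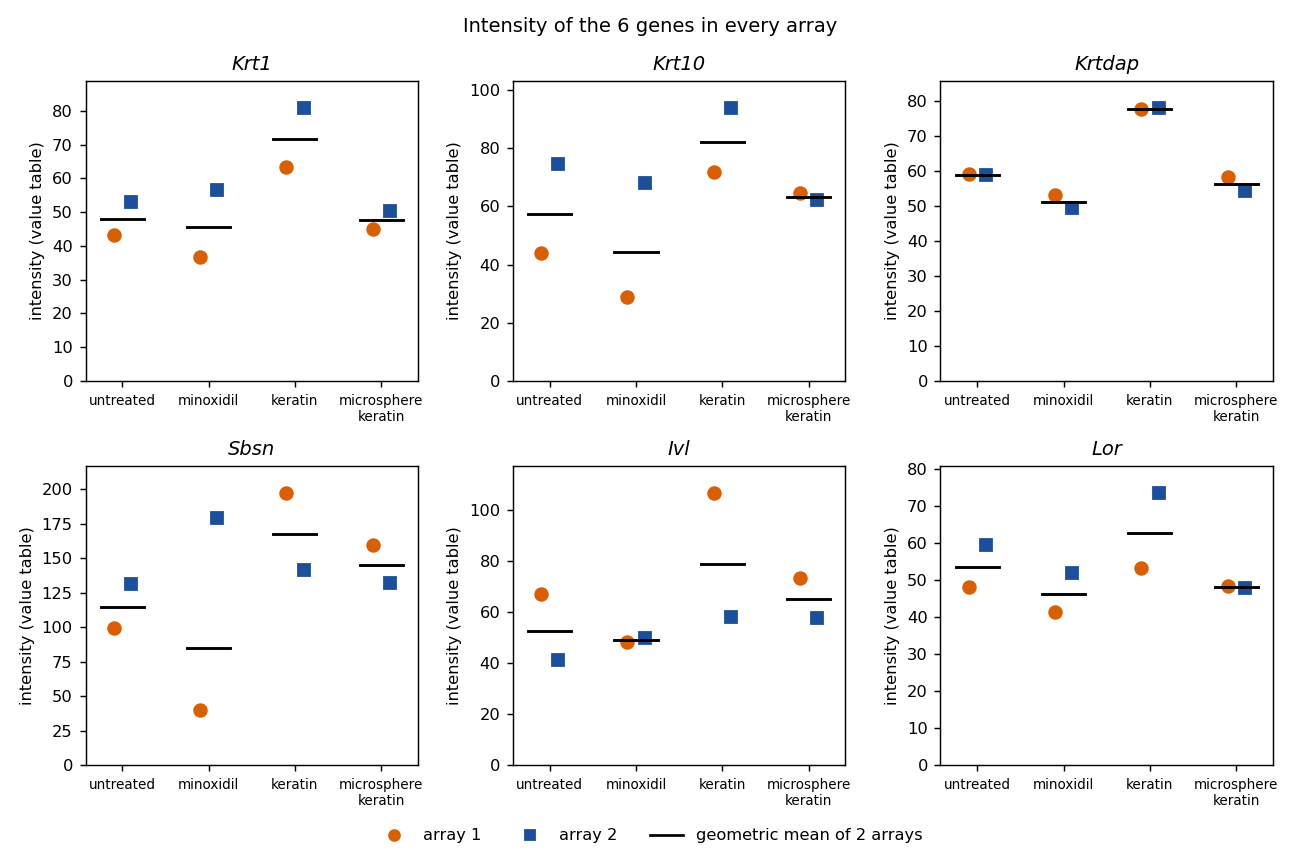
Intensity in the deposited value table (y axis, linear, from 0) of the 6 genes in the 4 groups. Circles are number 1 arrays, squares number 2 arrays and bars the geometric mean of the 2 arrays. Both keratin arrays are above all other arrays for Krt1 and Krtdap, and minoxidil array 1 is the lowest array for Krt1, Krt10, Sbsn and Lor.

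By geometric mean, keratin skin was highest and minoxidil skin lowest for all 6 genes. For Krt1, Krt10, Sbsn and Lor the place of minoxidil rested on its array 1, which ranked 8 of 8. Minoxidil array 2 ranked 3, 4, 2 and 4 for these genes. For Krtdap and Ivl both minoxidil arrays ranked 6 to 8. For Krt1 the means were 71.6 in keratin, 47.9 in untreated, 47.6 in microsphere keratin and 45.7 in minoxidil skin, and neighbours below the first place differed by less than the spread of their arrays. For Krtdap they were 77.7, 58.9, 56.2 and 51.2 in the same order, with no overlap between any neighbours. Untreated skin was second for Lor too, at 53.6 against 62.6 in keratin skin, with overlapping arrays. Microsphere keratin took the second place for Krt10 (63.4 against 82.1 in keratin), Sbsn (145 against 167) and Ivl (65.1 against 78.8). Of these 3, Krt10 had no overlap between the keratin and microsphere keratin arrays, and Sbsn and Ivl overlapped.

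The first comparison asked how the genes differ between skin given keratin and skin given water. The mean was higher with keratin for 6 of 6 members, and so were both same-numbered differences, array 1 against array 1 and array 2 against array 2, which are also the ones the authors' tables use. Among all genes tested 75.8% had a higher mean and 44.2% were higher in both. The keratin arrays lay above the untreated arrays without overlap for 3 of 6 members, Krt1, Krtdap and Sbsn, against 20.0% of all genes, and they ranked first and second of the 8 arrays for 2 of 6, Krt1 and Krtdap, against 3.12% of all genes. The median log2 difference of the 6 genes was 0.53, and that of all genes tested was 0.10.

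Krt1 differed by 0.58 on the log2 scale (SE 0.26, 95% interval -0.01 to 1.17, n = 2 and 2 arrays), with an unadjusted limma p of 0.0537 and an adjusted p of 1.00. Its number 1 and number 2 arrays gave 0.55 and 0.61. Krtdap differed by 0.40 (SE 0.22, 95% interval -0.10 to 0.90) with an adjusted limma p of 1.00, and had the closest same-numbered differences of the 6 genes, 0.39 and 0.41. For both genes the 95% interval includes 0 although the arrays do not overlap. The spread in that interval is pooled over the 4 groups and drawn by eBayes toward that of other genes of like intensity. Over all genes the 2 arrays of the minoxidil group differed more. Their difference had an SD of 0.92 on the log2 scale, against 0.35 to 0.41 in the other groups. Krtdap's own arrays were closer, with SDs of 0.0028 to 0.074 within groups, under its SE of 0.22.

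Krt10 was higher by 0.52 (SE 0.43), with 0.71 in the number 1 and 0.33 in the number 2 arrays. Ivl was higher by 0.59 (SE 0.36), with 0.67 and 0.50. Sbsn was higher by 0.55 (SE 0.74), with 0.99 and 0.11, so most of its difference came from the number 1 arrays. Lor had the smallest difference of the 6, at 0.23 (SE 0.23), and it was the only member whose mean lay below untreated when keratin array 2 was left out (-0.0055). All 4 had an adjusted p of 1.00 in the limma fit.

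Over the 6 genes the median difference was 0.61 in the number 1 arrays and 0.37 in the number 2 arrays, beside 0.19 and 0.02 for all genes tested. Untreated array 1, the array with low levels across all genes, is the control of the first of these. Without it the median of the 6 genes was 0.38. Both keratin arrays were then above the remaining untreated array for 4 of 6 members, against 26.6% of all genes. Quantile normalization between arrays took the median of all genes from 0.10 to 0.02 and their share with a higher mean from 75.8% to 54.7%. The members' median was then 0.33, with 6 of 6 higher in the mean and 5 higher in both same-numbered differences, the exception being Lor at -0.06 in the number 1 arrays.

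**Figure D2:**
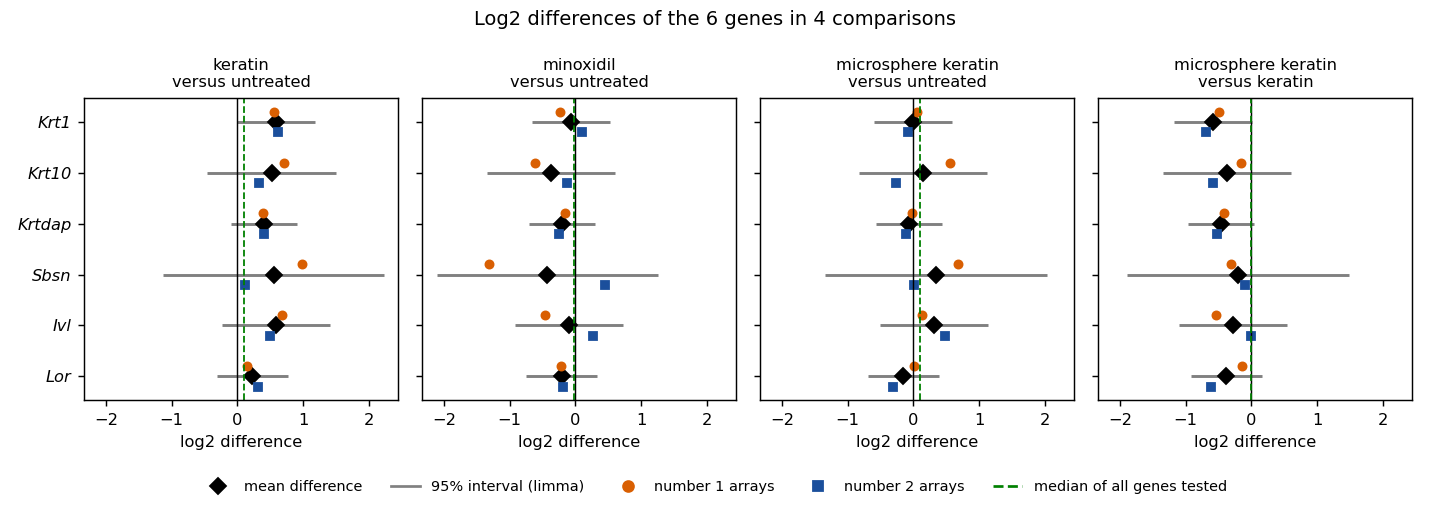
Log2 differences (x axis) of the 6 genes (rows) in the 4 comparisons. Diamonds are mean differences with their 95% limma intervals (grey), circles and squares the differences within number 1 and number 2 arrays, and the dashed green line the median of all genes tested. Every mean lies above 0 for keratin against untreated and below 0 for microsphere keratin against keratin, and all intervals cross 0.

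Microsphere keratin was set against keratin to ask whether the 2 forms differ. The mean was lower with microsphere keratin for 6 of 6 members and so were both same-numbered differences, against 54.4% and 23.6% of all genes tested. The arrays did not overlap for 4 of 6, Krt1, Krt10, Krtdap and Lor, against 10.5% of all genes. The members' median log2 difference was -0.38, and that of all genes was -0.01. This comparison shares the keratin arrays with the one above, so high values in those 2 arrays enter both.

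The keratin pair gave -0.59 for Krt1 (SE 0.26, 95% interval -1.18 to 0.0022, unadjusted p 0.0507, limma adjusted p = 1.00) and -0.37 for Krt10 (SE 0.43). Krt1 was lower by 0.49 in the number 1 and by 0.69 in the number 2 arrays. Krt10 differed less in the number 1 arrays (-0.16) than in the number 2 arrays (-0.59). Krtdap was lower by 0.47 (SE 0.22, 95% interval -0.97 to 0.03, unadjusted p 0.0632, limma adjusted p = 1.00), with -0.42 and -0.52.

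For the envelope precursors the differences were -0.38 (SE 0.23) for Lor and -0.28 (SE 0.36) for Ivl. Lor had -0.14 in the number 1 and -0.62 in the number 2 arrays, and Ivl had -0.54 and -0.01, so each rested mainly on 1 keratin array, and not on the same one. Sbsn differed by -0.20 (SE 0.74). Without keratin array 1, the differences of Sbsn and Ivl were 0.03 and 0.16, and 4 of 6 members were then lower. Quantile normalization left 6 of 6 members lower in the mean and in both same-numbered differences, with a median of -0.33.

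**Figure D3:**
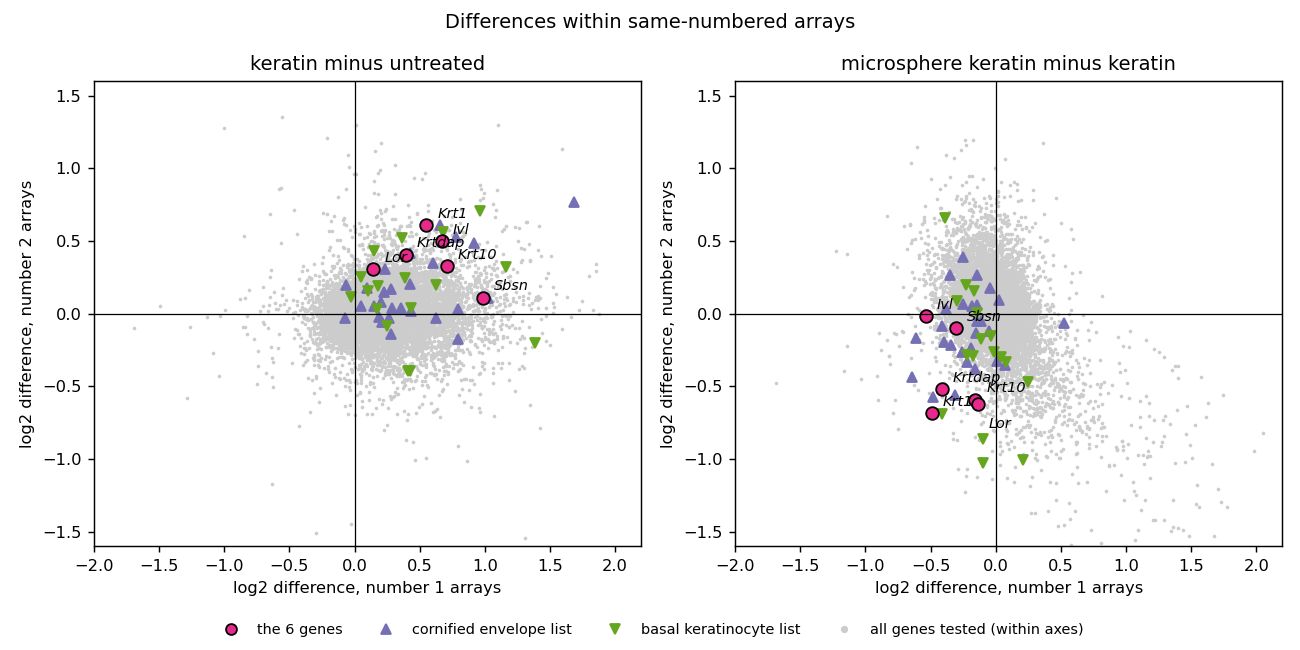
Log2 difference within number 1 arrays (x axis) against that within number 2 arrays (y axis), for keratin minus untreated (left) and microsphere keratin minus keratin (right). Grey points are all genes tested that fall within the axes, pink circles the 6 genes, purple and green triangles the cornified envelope and basal keratinocyte lists. The 6 genes lie in the upper right quadrant on the left and in the lower left quadrant on the right, and the 2 panels share the keratin arrays.

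Against untreated skin, microsphere keratin gave 3 members a higher and 3 a lower mean, with a median of 0.07 beside 0.10 for all genes tested. Sbsn lay above untreated without overlap (0.34, SE 0.74) and Krtdap below (-0.07, SE 0.22), that is 1 of 6 in each direction, against 14.7% and 5.24% of all genes. The Sbsn difference was 0.68 in the number 1 and 0.01 in the number 2 arrays. Ivl differed by 0.31 (SE 0.36), Krt10 by 0.15 (SE 0.43), Krt1 by -0.01 (SE 0.26) and Lor by -0.15 (SE 0.23), each with an adjusted limma p of 1.00. Krt1 had a 95% interval of -0.60 to 0.58, which reaches the keratin difference of 0.58, so the 2 arrays a group do not show that its level was unchanged. Under quantile normalization the share of all genes with a higher mean went from 75.8% to 55.3%, and the members were again 3 higher and 3 lower.

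Minoxidil skin had a lower mean than untreated skin for 6 of 6 members, against 54.3% of all genes tested, with a median of -0.21 against -0.02. Krt10, Krtdap and Lor were lower in both same-numbered differences, 3 of 6 against 19.5% of all genes, and only Krtdap was lower without overlap, 1 of 6 against 4.34%. Its difference was -0.20 (SE 0.22), with -0.15 in the number 1 and -0.25 in the number 2 arrays. All 6 members had an adjusted limma p of 1.00. Sbsn was -1.31 in the number 1 and 0.45 in the number 2 arrays, and Krt10 was -0.61 and -0.13. Without minoxidil array 1, Krt1, Krt10 and Sbsn had means above untreated, by 0.24, 0.25 and 0.65, while Ivl and Lor stayed below it, at -0.078 and -0.044. For Krt1 and Ivl the number 2 arrays gave 0.10 and 0.27, against -0.24 and -0.47 for number 1, and Lor gave -0.19 and -0.23.

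The 6 genes did not follow each other closely across arrays. Over the 7 arrays other than minoxidil array 1, Krt1 correlated with Krt10 at r = 0.85 and with Lor at 0.86. Ivl stood apart from the 2 keratins and from Lor, at r = 0.04 with Krt1, -0.15 with Krt10 and -0.26 with Lor, and reached 0.55 with Krtdap. Of the 15 pairs of members 13 had a positive r, with a median of 0.49. These values describe 7 points that share the 4 groups and each array's quality. Within keratin skin the members split by array, with Krt1, Krt10 and Lor higher in array 2 by 0.35, 0.38 and 0.46 on the log2 scale, Sbsn and Ivl higher in array 1 by 0.48 and 0.88, and Krtdap level between them. The mean log2 level of the 6 genes was nevertheless close in those 2 arrays, at 6.42 and 6.40, above the 5.34 to 6.08 of the other 6 arrays.

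The genes whose levels most resembled the mean of the 6 over those 7 arrays were Rel, Tbxa2r, Sfxn3, Rit1, Dock6, St8sia3, Rasa3, Susd2, Calm4 and Smad5, at r = 0.95 to 0.99, out of 45 genes at 0.9 or more. Calm4, a calmodulin-like protein of differentiated keratinocytes, is the only one of these 10 that stands in any of the gene lists used. It read 45.1 and 44.8 in untreated, 34.5 and 47.9 in minoxidil, 60.6 and 59.7 in keratin, and 51.9 and 47.4 in microsphere keratin skin. Most of the 10 were dim: 4 of them were in no array above the highest nonspecific control probeset, and Smad5 was the only one above it in all 8 arrays. The likeness of some others held only without minoxidil array 1, since over all 8 arrays r was 0.44 for Rel and -0.49 for Tbxa2r.

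Other genes of the cornified envelope were mostly higher with keratin too. Of 27 genes tested on that list, which holds none of the 6 members, 26 had a higher mean, 19 were higher in both same-numbered differences and 14 did not overlap, with a median log2 difference of 0.22, beside 75.8%, 44.2% and 20.0% of all genes and their median of 0.10. The list's median was 0.28 in the number 1 and 0.08 in the number 2 arrays, beside 0.19 and 0.02 for all genes. None passed the test. Some genes of the list were dim, such as Lce3a at 33.6 to 44.0 and Lce1a1 at 41.7 to 52.6. The highest nonspecific control read 38.9 to 57.0 per array. Sprr1a, a small proline-rich envelope precursor, read 109.0 and 72.3 in untreated skin and 350.1 and 123.4 in keratin skin, a log2 difference of 1.23 (SE 0.69). Cst6, a cysteine protease inhibitor of the upper epidermis, differed by 0.70 (SE 0.60), and Krt80, a keratin of differentiating epithelia, by 0.65 (SE 0.32), all 3 with an adjusted limma p of 1.00.

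Microsphere keratin had a lower mean than keratin for 22 of the 27 envelope genes, with 15 lower in both same-numbered differences, 9 without overlap and a median of -0.14, beside 54.4%, 23.6% and 10.5% of all genes and their median of -0.01. Krt77, a suprabasal keratin, had the largest difference of these 9, at -0.53 (SE 0.34). It read 104.3 and 117.5 in keratin skin and 74.8 and 78.8 in microsphere keratin skin, with an adjusted limma p of 1.00. Against untreated skin, 20 of 27 had a higher mean with microsphere keratin, near the 75.8% of all genes, and 17 of 27 a lower mean with minoxidil, beside 54.3% of all genes.

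The lists for the other steps of differentiation had shares with keratin near or under those of all genes tested, which were 75.8% for a higher mean, 44.2% for higher in both same-numbered differences and 20.0% for higher without overlap. For suprabasal adhesion and desquamation 11 of 15 genes had a higher mean with keratin, but 5 were higher in both same-numbered differences, with medians of 0.37 in the number 1 and -0.12 in the number 2 arrays. Its higher genes without overlap, 2 of 15, were Dmkn (0.70, SE 0.44) and Sfn (0.51, SE 0.30), both made in differentiating keratinocytes, and the tight junction gene Cldn1 was lower without overlap (-0.10, SE 0.41). Of 15 barrier lipid genes 11 had a higher mean and 2 were higher in both, with a median of 0.09. Differentiation regulators were split, with 12 of 23 higher and a median of 0.00074. Among them Cebpa (0.40, SE 0.24), Klf4 (0.33, SE 0.69) and Ppard (0.12, SE 0.15), which encode transcription factors, were the 3 of 23 above untreated without overlap, and every named gene had an adjusted limma p of 1.00.

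Genes of the basal layer also had higher means with keratin. All 17 tested basal keratinocyte genes had a higher mean, 12 in both same-numbered differences and 6 without overlap, with a median of 0.23, beside 75.8%, 44.2% and 20.0% of all genes and their median of 0.10. The list's median was 0.38 in the number 1 arrays, whose untreated array was low across all genes, and 0.19 in the number 2 arrays. Those of all genes were 0.19 and 0.02. Krt15, a basal and follicle stem cell keratin, read 78.8 and 103.2 in untreated and 153.6 and 168.5 in keratin skin, a difference of 0.83 (SE 0.56). Krt5, the keratin that suprabasal cells switch off, differed by 0.74 (SE 1.07), with 1.16 in the number 1 and 0.32 in the number 2 arrays. Col17a1, a collagen of the basal cell's anchoring junction, differed by 0.62 (SE 0.62), and these genes had adjusted limma p-values of 1.00. Against keratin, 16 of 17 basal genes had a lower mean with microsphere keratin, beside 54.4% of all genes, with a median of -0.13. With keratin, 9 of 16 hair shaft and 7 of 11 inner root sheath genes had a higher mean, under the 75.8% of all genes.

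**Figure D4:**
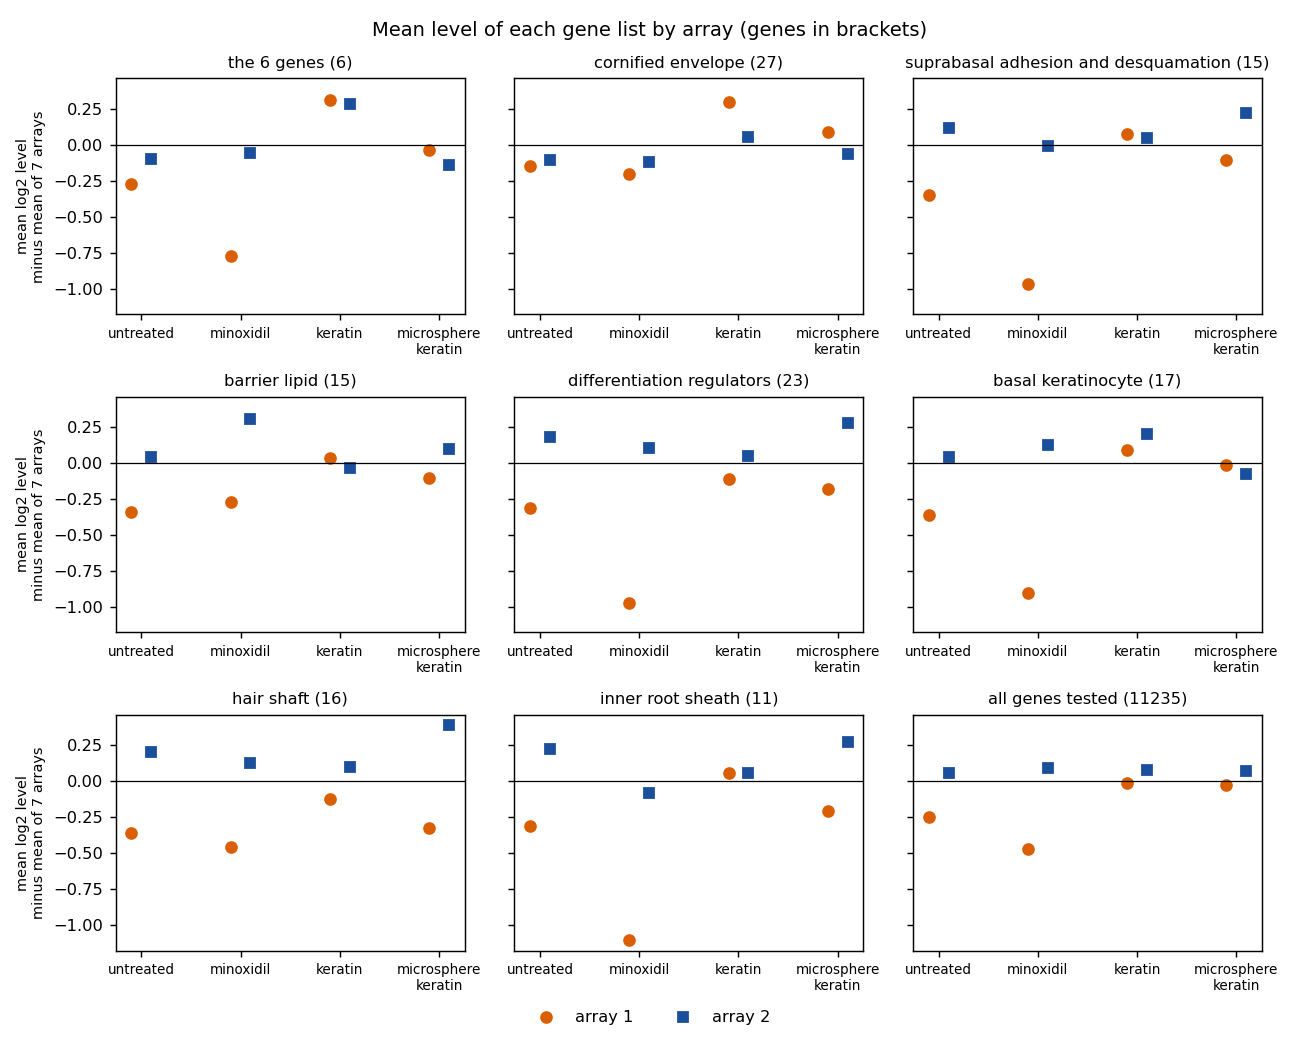
Mean log2 level of the 6 genes, of 7 gene lists and of all genes tested, per array (y axis), each minus its mean over the 7 arrays other than minoxidil array 1. Circles are number 1 and squares number 2 arrays. The 6 genes have both keratin arrays above all others. Number 1 arrays lie below number 2 arrays in every group for the hair shaft and differentiation regulator lists, as they do for all genes tested.

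Markers of other skin cells were set beside these values, for keratin against untreated skin, a comparison in which 75.8% of all genes had a higher mean. All 7 tested macrophage and dendritic markers were higher in the mean and 6 in both same-numbered differences, with medians of 1.35 in the number 1 and 0.24 in the number 2 arrays, and their mean log2 level was 6.17 to 6.19 in untreated, 6.39 to 7.36 in keratin, 6.28 to 7.13 in microsphere keratin and 5.81 to 6.21 in minoxidil skin. All 9 fibroblast markers were higher with keratin, at 7.26 to 7.65 in untreated and 7.47 to 8.48 in keratin skin, and all 11 skeletal muscle markers, at 8.11 to 10.55 and 8.98 to 10.57. Sebaceous gland markers were higher in 8 of 8, at 5.95 to 6.19 and 6.18 to 6.63, and adipocyte markers in 3 of 4. Higher in both same-numbered differences were 5 of 9 fibroblast, 8 of 11 muscle, 3 of 8 sebaceous and 3 of 4 adipocyte markers. The share of all genes was 44.2%. Sebaceous gland medians were 0.59 in the number 1 and -0.08 in the number 2 arrays. Endothelial markers had a higher mean in 3 of 3, T cell markers in 2 of 2 and melanocyte markers in 3 of 6, with medians of 0.03, 0.10 and -0.01. In both same-numbered differences 0, 0 and 2 of these were higher. On this scale no probeset reads 0. The part of these cells in the members' differences was not tested.

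Several members lie in gene clusters of the epidermis. Gene order was taken from RefSeq (assembly GRCm38.p6), whose gene table also served to match older symbols. By that order Sbsn, Dmkn and Krtdap are consecutive protein-coding genes on chromosome 7. Their log2 differences with keratin were 0.55, 0.70 and 0.40. On chromosome 3, Ivl stands next to Sprr4 and then Sprr1a, and Lor next to Prr9, a proline-rich gene that differed by 0.49 in each of the same-numbered differences. On chromosome 15, Krt1 has Krt77 beside it, which differed by 0.32. Within 10 protein-coding genes on either side of the members, 44 distinct neighbours were tested, of which 29 were higher with keratin in both same-numbered differences, beside 44.2% of all genes, with a median of 0.24 beside 0.10. Many of these belong to the lists above, so they are not a separate set.

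The authors' deposited tables, which set 1 array against 1 on another scale, gave larger folds. For number 1, the authors' deposited table put keratin against control at 12.9-fold for Krt1, 11.14-fold for Ivl, 8.77-fold for Krt10 and 5.77-fold for Krtdap. Its number 2 counterpart, again the authors' deposited table, gave 2.94-fold for Krt1, 2.24-fold for Ivl, 1.85-fold for Lor, 1.82-fold for Krtdap and 1.61-fold for Krt10. The value table gave 1.46-fold and 1.53-fold for Krt1 in the number 1 and number 2 arrays. In the number 1 table the control of Krt1 was 0.45 and that of Krt10 was 1.06 on the authors' deposited log2 scale. They were 4.96 and 5.52 in the number 2 table. The large folds of these 2 genes were thus read against low control values, and why the folds differ between the numbers was not tested. The smallest fold listed was 2 for number 1 and 1.3 for number 2. Why a member is missing was not tested. The Sbsn probeset used, at 1.98-fold in the value table, is not listed for keratin in the number 1 arrays. The 2 other Sbsn probesets are listed there, at 13.2-fold and 2.18-fold in the authors' deposited table.

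For microsphere keratin the authors' deposited number 1 table listed Krt10 at 6.97-fold, Krt1 at 4.21-fold, Krtdap at 2.93-fold and Ivl at 2.90-fold. By probesets not used here, it also had Sbsn at 10.92-fold, Ivl at 3.17-fold and Lor, as lower, at -2.38 and -10.21. The value table's log2 difference for Krtdap in the same arrays was -0.02, the opposite sign. In the number 2 arrays the authors' deposited table had Ivl at 2.15-fold and, as lower with microsphere keratin, Krt10 at -1.45 and Lor at -1.51. For minoxidil, number 2 arrays, the authors' deposited table listed Ivl at 1.52-fold, Sbsn at 1.47-fold and Krtdap at -1.48. The signs of the 2 sources matched for 9 of 9 member probesets listed with keratin in the number 2 arrays and 8 of 9 in the number 1 arrays. They matched for 6 of 8 with microsphere keratin in the number 1 arrays, 4 of 4 in the number 2 arrays and 5 of 5 with minoxidil.

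One of the 2 other probesets of Lor went against the one used. Its mean keratin difference in the value table was -0.15, with -0.38 in the number 1 and 0.09 in the number 2 arrays, and the authors' deposited number 1 table had it at -2.83. The second gave 0.13 in the value table, the same direction as the probeset used, with 0.01 and 0.25, and the authors' deposited tables had it at -7.2 for number 1 and 1.92 for number 2. Both have intensities of 25.3 to 40.6, which lie within the 20.0 to 57.0 of the nonspecific control probesets. Other probesets of Sbsn and Ivl were higher with keratin in both same-numbered differences. The brighter of the 2 other Sbsn probesets gave 1.12 and 0.34, and the other Ivl probeset gave 0.25 and 0.07.

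**Figure D5:**
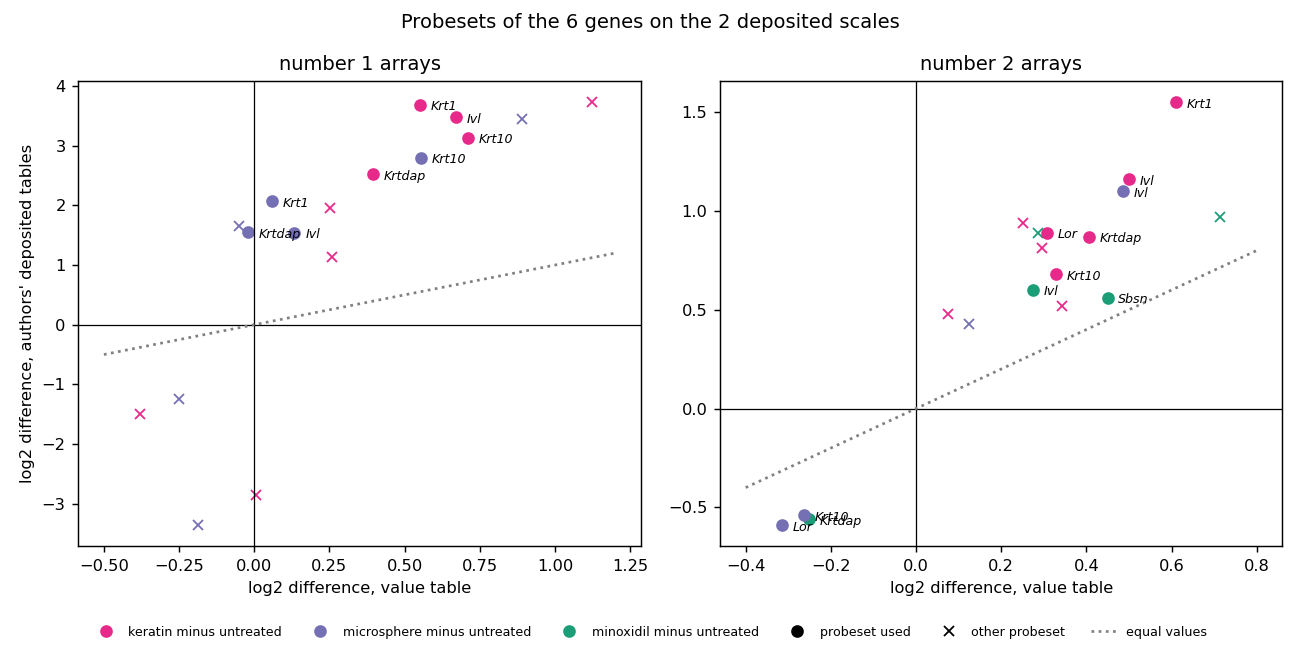
Log2 difference in the value table (x axis) against that in the authors' deposited tables (y axis) for every listed probeset of the 6 genes, number 1 arrays on the left and number 2 arrays on the right, with different axis ranges. Filled circles are the probesets used here, crosses other probesets, colours the treatment compared with untreated, and the dotted line equal values. The number 1 differences reach 3.73 on the authors' scale, and the points below 0 on the left are the other Lor probesets.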

How the data were processed

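Biotinylated cRNA from 9.4 µg of total RNA was hybridised to HT_MG-430_PM arrays, per the labels' protocols and the file headers. The submitters' processing notes name RMA, Transcriptome Analysis Console and Affymetrix Expression Console. The deposited values are an intensity on a linear scale for 45141 probesets, and how it was background-corrected, normalized or centred is not stated in the sources at hand. The comparison tables deposited by the authors give log2 values and a score, the fold change with a minus sign where the treated array is lower. One of them also has p-values, all deposited as 1. The deposited table named for minoxidil array 1 repeats all 9387 rows of the microsphere number 1 table and served only for names.

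Probesets were named from the authors' tables, which list 28918 probesets past a fold in these same arrays, so which genes have a name here depends on these arrays. Of these, 23804 have 1 symbol, 844 several and 4270 none, and the rest are unnamed here. Older symbols of list genes were matched through the RefSeq gene table. No coordinates are given, since no source names a build.

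From the deposited intensities, log2 values were fitted with limma 3.58.1 in R 4.3.3 (4 group means, eBayes with trend, 4 residual degrees of freedom, Benjamini-Hochberg threshold 0.05), after dropping genes whose mean was under the 25th percentile. The smallest two-sided p of an exact permutation test of 2 against 2 is 0.333, so none was run. The code was tested on simulated data. No arrays held identical values.

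The members and gene lists were chosen with earlier results of these data known. Named list genes are, per pathway list and comparison, up to 3 without overlap between groups with the largest differences, and up to 10 genes most alike the members' mean. Genes given as markers, neighbours or background are named beside these. Alternatives covered scaling, filters, probesets, background, variance model, weights, threshold, the replicate number and arrays left out. Plots used Python 3.11.15 and matplotlib 3.10.9.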

Additional observations from a re-analysis of the deposited data

How the results depend on the processing

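Over 21 alternatives, 24 member differences changed sign 23 times, in 10 of them, and the lowest adjusted p of a member was 0.0826 (Sbsn with minoxidil, where minoxidil array 2 is left out). Some alternatives could not change a member's difference and bear only on its p-value. These were the filters, the fit of every probeset, the variance trend, the array weights and the replicate block on all arrays. Leaving out an array of a group outside the comparison could not change it either, with or without the replicate block. For keratin against untreated the members' median of 0.53 became 0.33 with quantile normalization, 0.41 and 0.62 with normexp at offsets 50 and 16, and 0.38 without untreated array 1 and minoxidil array 1. Leaving out single arrays gave 0.38 to 0.56, where Lor was -0.0055 when keratin array 2 was dropped and 0.46 when keratin array 1 was. For microsphere keratin against keratin the median of -0.38 became -0.29 with the mean of all probesets and -0.27 and -0.44 with normexp at 50 and 16. Leaving out single arrays gave -0.52 to -0.36, with Sbsn at 0.035 and Ivl at 0.16 without keratin array 1, and their other ends at -0.44 and -0.71. For microsphere keratin against untreated the median of 0.07 became -0.11 without untreated array 1 and minoxidil array 1, and -0.11 to 0.093 with single arrays left out. Krt1 turned to 0.0078 and 0.020 with normexp at 50 and 16, and single arrays left out gave -0.15 to 0.14 for Krt1, -0.24 to 0.53 for Krt10 and -0.042 to 0.66 for Ivl. Krt10 was -0.24 also without untreated array 1 and minoxidil array 1. For minoxidil, Krt1, Krt10, Sbsn and Ivl were 0.11, 0.067, 0.71 and 0.24 in the fit with the replicate block and no minoxidil array 1. Without untreated array 1 and minoxidil array 1, Krt1, Sbsn and Ivl were 0.10, 0.45 and 0.27. Single arrays left out gave -0.38 to 0.24 for Krt1, -0.996 to 0.25 for Krt10, -1.51 to 0.65 for Sbsn and -0.45 to 0.25 for Ivl, with the highest values of the first 3 without minoxidil array 1 and the lowest without minoxidil array 2. The counts of genes called, 0 in each comparison, became 860 for minoxidil and 163 for any difference among the groups without minoxidil array 2, where the lone minoxidil array 1 is assumed to vary like the other groups. The cause of these moves was not tested, beyond the fewer arrays in some.

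The labels do not say what the numbers 1 and 2 share. The differences between a group's 2 arrays correlated between groups at r = 0.11 to 0.59 over all genes, positive for every pair of groups. The fit with the replicate block called 0 genes in each comparison. Since every group holds both numbers, the block cannot change a difference of group means, only its error. The members' medians of 0.53 for keratin and -0.38 for microsphere keratin against keratin were therefore fixed, and do not test the part of the number. Counts added after seeing the data were members higher with keratin (5 to 6 over the alternatives), members lower with microsphere keratin than keratin (4 to 6), and members above untreated without overlap, 3 with both untreated arrays and 4 without untreated array 1. The ranges of the first 2 counts include alternatives that could not change a member's difference. The authors' deposited tables were set beside the values and not refitted. Promoters and protein sequences were not used here. Signal near that of the nonspecific controls limits what can be read for Krt1 and Lor.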
